A study of Homo sapiens with 6 samples.

Results

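Secreted and signalling hypoxia targets are genes that cells induce when oxygen is scarce and whose products act outside glycolysis and autophagy. The 10 genes described here, of the 38637 in the table, are VEGFA, ADM, EDN1, ANGPTL4, STC2, CA9, NDRG1, ANKRD37, KDM3A and BHLHE40. They were taken by symbol, and were chosen with earlier results of these samples known, so that the values of the members are given as a description, without a p-value for a single member. The cells were OVCAR8, an established human ovarian carcinoma line, wild type per the labels. One group of 3 samples received DMSO, the solvent, and the other group of 3 samples received 2 nM pladienolide B (plaB), both for 72 h. Pladienolide B binds SF3B1, a subunit of the U2 snRNP that recognises the branch point of introns, and inhibits splicing. Polyadenylated RNA was sequenced. No sample was labelled as hypoxic, and the oxygen supply of the cultures is not given in the sources used here.

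The libraries held 22621338 to 26130882 reads on genes, and 22005 to 22987 genes had a read. Values are the reads per gene after the authors' adjustment to equal library sizes, here called adjusted reads. The carcinoma markers PAX8, KRT8, KRT18 and MSLN each had at least 3383 reads in every sample, whereas WT1 and MUC16 had 11 to 32. KRT7 had 6252 to 13239 reads, CDH2 3424 to 5110, VIM 59662 to 74047 and EPCAM 404 to 509. KRT19 and CDH1 were low, at 8 to 24 and 23 to 40 reads. The leukocyte marker PTPRC had at most 2 reads and CD3E had 0 in every sample; the sum of the 6 leukocyte markers, most of it CD68, was 1135 to 1292 adjusted reads in DMSO and 1533 to 1629 in plaB. The sum of the 6 endothelial markers was 134 to 140 in DMSO and 224 to 268 in plaB, with 0 to 4 reads of the defining marker CDH5. DMSO replicate 2 stood apart from the other DMSO samples for several members, so it is given separately throughout. In bulk RNA, fewer cells that express a gene and less RNA per cell cannot be told apart. The sources do not say that the samples of a group were separate cultures, so the spread between them may be technical.

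Cells answer low oxygen through hypoxia-inducible factors (HIFs), heterodimers of an oxygen-regulated alpha subunit, HIF1A or EPAS1, and the constant partner ARNT. When oxygen is present, the prolyl hydroxylases EGLN1, EGLN2 and EGLN3 mark the alpha subunit, VHL recruits it to a ubiquitin ligase, and it is degraded. When oxygen falls, the dimer binds short promoter and enhancer motifs with the core ACGTG or GCGTG and turns on genes for blood vessel growth, vessel tone, pH balance, metabolism and chromatin. In ovarian and other carcinomas some of these genes are known for their part in vascularisation and ascites.

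Promoter windows are shown for the members because this core is the element through which HIFs are known to reach their targets. Sequences came from the RefSeq promoter table of GRCh38.p14, which runs from 250 bases before to 50 after a gene's start, and matched 8 of the 10 members, all but VEGFA and NDRG1. EDN1 has 3 starts in that table and KDM3A has 2, and the start nearest to that of the canonical transcript was used. Each line holds 75 bases in 5′ to 3′ direction of the gene, and the capitals mark ACGTG or GCGTG, or the reverse complement of either (CACGT and CACGC). The windows are chr11:10304937-10305011 on the plus strand for ADM, chr6:12290203-12290277 plus for EDN1, chr19:8363905-8363979 plus for ANGPTL4, chr5:173328590-173328664 minus for STC2, chr9:35673853-35673927 plus for CA9, chr4:185396663-185396737 plus for ANKRD37, chr2:86441296-86441370 plus for KDM3A and chr3:4979253-4979327 plus for BHLHE40.
ADM: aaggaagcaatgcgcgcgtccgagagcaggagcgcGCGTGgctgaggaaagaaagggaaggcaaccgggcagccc
EDN1: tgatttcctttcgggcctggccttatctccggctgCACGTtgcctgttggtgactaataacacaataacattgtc
ANGPTL4: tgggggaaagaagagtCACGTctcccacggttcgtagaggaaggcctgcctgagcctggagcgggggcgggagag
STC2: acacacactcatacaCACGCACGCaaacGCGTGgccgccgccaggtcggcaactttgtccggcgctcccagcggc
CA9: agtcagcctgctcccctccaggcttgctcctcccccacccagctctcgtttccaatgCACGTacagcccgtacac
ANKRD37: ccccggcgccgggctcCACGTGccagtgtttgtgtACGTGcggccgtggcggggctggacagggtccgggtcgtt
KDM3A: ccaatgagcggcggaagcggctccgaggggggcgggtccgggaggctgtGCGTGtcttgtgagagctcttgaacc
BHLHE40: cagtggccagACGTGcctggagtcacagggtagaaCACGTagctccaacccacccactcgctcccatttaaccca

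All 8 matched promoters held ACGTG or GCGTG on one of the strands, 5 with ACGTG and 3 with GCGTG. Among all 35116 promoters of the table, 48.4% held one of them (ACGTG 21.4%, GCGTG 36.5%). Among the 12198 promoters of tested genes, 63.1% did (ACGTG 26.3%, GCGTG 51.0%). The palindrome CACGTG holds ACGTG on both strands and is also the E-box read by MYC and by BHLHE40 itself. It was found in ANKRD37 and BHLHE40, and in 7.26% of all promoters and 9.79% of those of tested genes. The motif nearest to the start lay 18 bases before it in CA9, 26 in KDM3A, 101 in ADM, 123 in EDN1, 143 in ANKRD37, 149 in BHLHE40, 222 in STC2 and 234 in ANGPTL4. The promoters of ANGPTL4 and STC2, whose DMSO and plaB values overlapped, are among these 8. Whether a motif bears on the change of a member was not tested. A match is a string of letters and not a measured binding site.

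Of the 10 members, 8 had every plaB sample below every DMSO sample, and 2, ANGPTL4 and STC2, had groups that overlapped. Of the 9 members that passed the filter on low values, 7 did not overlap, and the same was true in this direction for 28.8% of all 16178 tested genes. The adjusted p of limma, over all tested genes, was below 0.05 with a lower value in plaB for 7 of the 9 members (25.2% of all tested genes), and 5 of these were at least 2-fold lower (1.98%). None was called higher, against 22.4% of all tested genes; in either direction 47.6% of all tested genes were called. The median log2 fold change of the 9 members was -1.04, and that of all tested genes was -0.004, with 95% of genes between -0.94 and 0.92. As the members were chosen on this contrast, these counts are a description and no evidence of a change. Just inside the 2-fold line stood KDM3A, 2.06-fold lower, and just outside it BHLHE40, 1.997-fold lower.

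**Figure D1:**
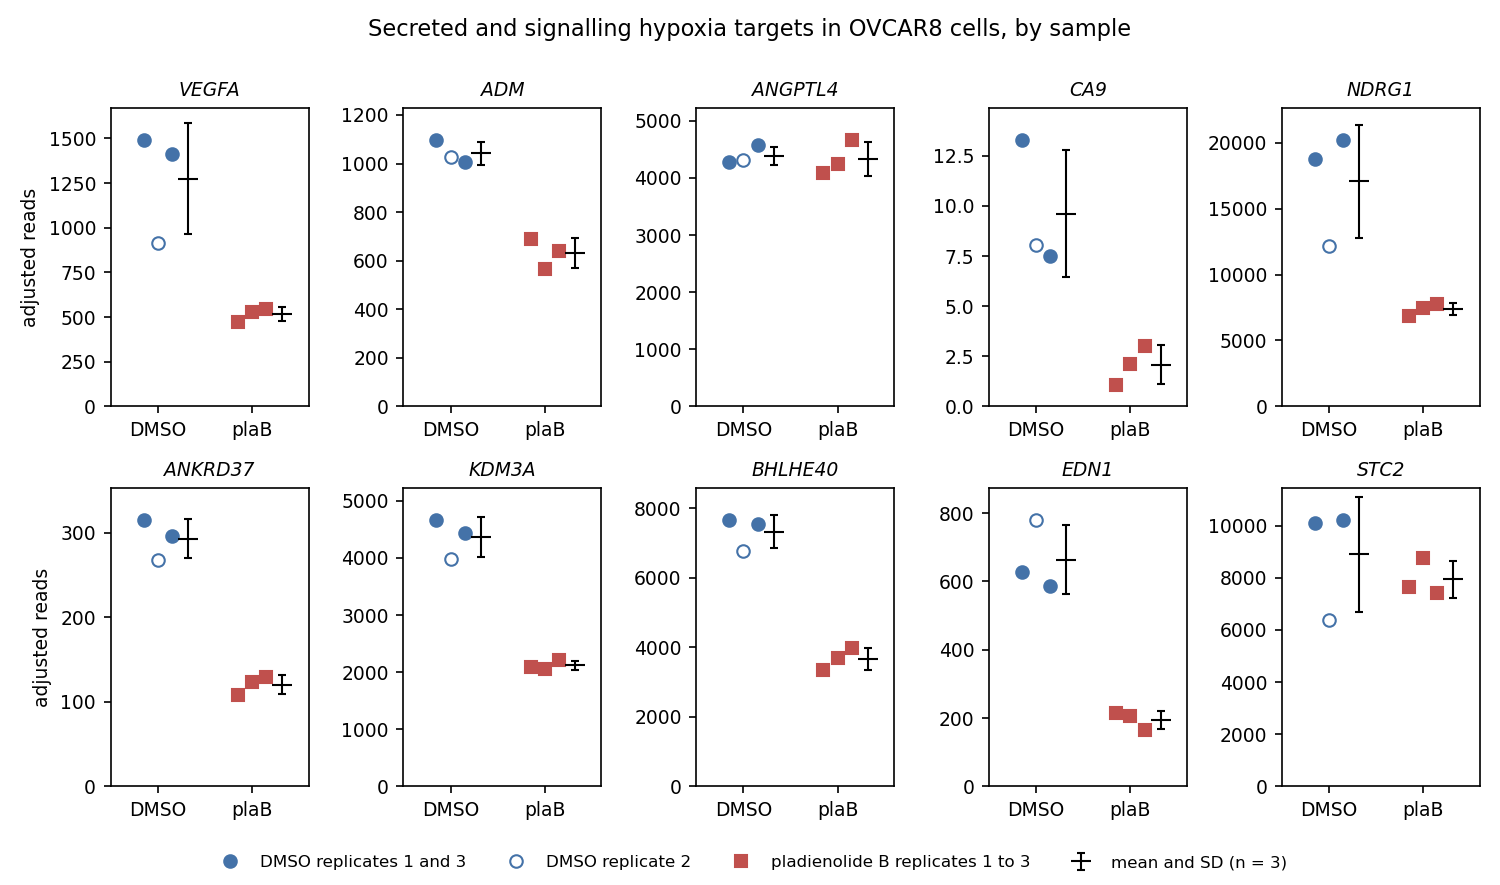
Adjusted reads (vertical axes, starting at 0 and scaled per gene) of the 10 members in each DMSO and plaB sample, with the mean and SD of 3 samples as a cross and bar; DMSO replicate 2 is the open circle. The plaB squares lie below all DMSO circles except for ANGPTL4 and STC2, and the open circle lies far below the filled ones for VEGFA, NDRG1 and STC2 and above them for EDN1.

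Among the secreted ligands, VEGFA (chr6:43770209-43786487, plus strand, GRCh38) encodes the main growth factor for endothelial cells. Its adjusted reads were 1490, 917 and 1414 in DMSO replicates 1, 2 and 3, and 471, 528 and 546 in the plaB samples. The groups did not overlap, and DMSO replicate 2 lay between the other DMSO samples and plaB, 57.2% of the way down. The mean was 1273 ± 311 in DMSO and 515 ± 39.0 in plaB (SD, n = 3 each), so that 40.5% remained, or 35.5% of the mean of DMSO replicates 1 and 3. The log2 fold change was -1.27 (standard error, SE, 0.13), and -1.5 (SE 0.07) without DMSO replicate 2. POLR1C, which encodes a subunit of RNA polymerases I and III, is annotated across the whole of VEGFA on the same strand (16279 shared bases). It had 612 adjusted reads in DMSO and 769 in plaB on average, the opposite direction to VEGFA. Where exons of both genes overlap, their reads cannot be told apart. How such reads were counted is not given in the sources used here.

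ADM (chr11:10305073-10307397, plus) encodes adrenomedullin, a peptide that dilates vessels and tightens the endothelial barrier. It was at 1096, 1027 and 1005 adjusted reads in DMSO replicates 1, 2 and 3, and at 690, 568 and 640 in plaB. All plaB samples were below all DMSO samples, and DMSO replicate 2 lay within the range of the other DMSO samples. On average 1043 ± 47.4 compared with 632 ± 61.3 (SD, n = 3 each), a log2 fold change of -0.72 (SE 0.07), or -0.73 without DMSO replicate 2. ADM was thus the member with the smallest difference among the 7 called lower.

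EDN1 (chr6:12256463-12297194, plus) encodes endothelin-1, a peptide that constricts vessels and stimulates the growth of ovarian carcinoma cells. It had 627, 779 and 585 adjusted reads in DMSO replicates 1, 2 and 3, and 215, 206 and 165 in plaB. The groups were far apart, and DMSO replicate 2 was here the highest sample, at 129% of the mean of the other DMSO samples. EDN1 had the lowest log2 fold change of the tested members, -1.76 (SE 0.11), that is a mean of 664 ± 102 against 196 ± 26.6 (SD, n = 3 each), 3.39-fold lower. Without DMSO replicate 2 the log2 fold change was -1.64 (SE 0.11).

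ANGPTL4 (chr19:8364129-8374373, plus) encodes a secreted inhibitor of lipoprotein lipase that is induced by hypoxia and by PPAR nuclear receptors. Its values were 4278, 4317 and 4569 adjusted reads in DMSO and 4089, 4245 and 4661 in plaB. The groups overlapped over most of their range, and DMSO replicate 2 was close to DMSO replicate 1. The mean was 4388 ± 158 in DMSO and 4332 ± 296 in plaB (SD, n = 3 each), with a log2 fold change of -0.02 (SE 0.05), or -0.03 without DMSO replicate 2. Thus 98.7% of the DMSO level remained.

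STC2 (chr5:173314723-173328414, minus) encodes stanniocalcin-2, a secreted glycoprotein induced by hypoxia and by endoplasmic reticulum stress. It had 10108, 6362 and 10207 adjusted reads in DMSO replicates 1, 2 and 3, and 7647, 8742 and 7411 in plaB. DMSO replicate 2 was the lowest of all 6 samples, below each plaB sample, whereas the other DMSO samples were above each of them. With all samples the log2 fold change was -0.14 (SE 0.12), at means of 8892 ± 2192 and 7933 ± 710 (SD, n = 3 each). Without DMSO replicate 2 it was -0.36 (SE 0.05), and 78.1% of the mean of DMSO replicates 1 and 3 remained. The account of STC2 therefore rests on 1 library.

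On the cell surface, CA9 (chr9:35673809-35681159, plus) encodes carbonic anhydrase IX, which hydrates CO2 outside the cell and is widely used as a marker of hypoxic tumour tissue. It was almost not expressed: the reads were 14, 8 and 8 in DMSO and 1, 2 and 3 in plaB, so the gene did not pass the filter on low values and was not tested. Every plaB sample was below every DMSO sample, and DMSO replicate 2 equalled replicate 3. Over the summed reads, 30 against 6, the level in DMSO was 4.65-fold that in plaB after scaling for library size, with an exact 95% interval of 1.90 to 13.7 that covers counting error only. With so few reads the size of the difference is poorly known. As CA9 was chosen with this contrast known, the interval is a description and no test of a change.

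Inside the cell, NDRG1 (chr8:133237175-133297252, minus) encodes a stress-responsive protein linked to trafficking and differentiation and had the highest level per length among the members in DMSO. It had 18795, 12195 and 20189 adjusted reads in DMSO replicates 1, 2 and 3, and 6855, 7492 and 7767 in plaB. The groups did not overlap, and DMSO replicate 2 lay 60.2% of the way from the other DMSO samples to plaB. The mean was 17060 ± 4270 in DMSO and 7371 ± 468 in plaB (SD, n = 3 each), with a log2 fold change of -1.18 (SE 0.12). Without DMSO replicate 2 it was -1.40 (SE 0.04).

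ANKRD37 (chr4:185396841-185400243, plus) encodes a small ankyrin repeat protein and is a direct HIF1A target in many cell types. Its adjusted reads were 315, 268 and 296 in DMSO replicates 1, 2 and 3, and 108, 124 and 129 in plaB. The groups did not overlap, and DMSO replicate 2 was the lowest DMSO sample by a small margin. The log2 fold change was -1.28 (SE 0.12), with means of 293 ± 23.4 and 120 ± 11.3 (SD, n = 3 each), and -1.34 without DMSO replicate 2. UFSP2 lies on the opposite strand and shares 707 bases with ANKRD37; it had 814 adjusted reads in DMSO and 444 in plaB. LRP2BP, which shares 447 bases, had 84.7 and 59.4. Whether reads were counted by strand is not given in the sources used here, so that reads of ANKRD37 and of these neighbours cannot be told apart where they overlap.

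KDM3A (chr2:86440647-86492716, plus) encodes a demethylase of lysine 9 of histone H3, an oxygen-dependent enzyme that is itself induced by HIF1A. It had 4661, 3979 and 4442 adjusted reads in DMSO replicates 1, 2 and 3, and 2082, 2063 and 2211 in plaB. The plaB samples lay close together and far below the DMSO samples. The mean was 4360 ± 348 in DMSO and 2119 ± 80.4 in plaB (SD, n = 3 each), with a log2 fold change of -1.04 (SE 0.05), or -1.10 without DMSO replicate 2.

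BHLHE40 (chr3:4979420-4985323, plus) encodes DEC1, a transcriptional repressor of the circadian clock that also passes on hypoxic repression. It had 7654, 6779 and 7534 adjusted reads in DMSO replicates 1, 2 and 3, and 3336, 3698 and 3965 in plaB. The groups did not overlap. With means of 7322 ± 475 and 3666 ± 316 (SD, n = 3 each), 50.1% remained, a log2 fold change of -1.0 (SE 0.06) and of -1.05 without DMSO replicate 2. The antisense gene BHLHE40-AS1 shares 542 bases with it and had 10.3 adjusted reads in DMSO and 14.8 in plaB.

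**Figure D2:**
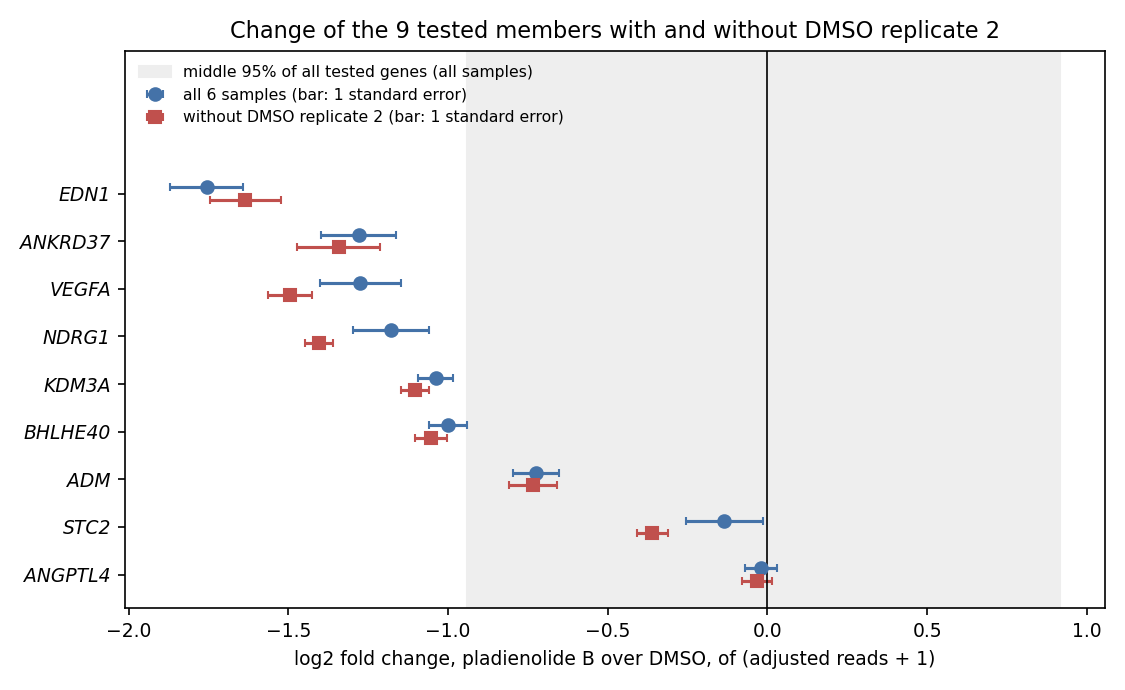
Log2 fold change of plaB over DMSO on the scale log2(adjusted reads + 1) for the 9 tested members, from all 6 samples (circles) and without DMSO replicate 2 (squares); bars are 1 standard error and the grey band holds the middle 95% of all tested genes. Leaving out DMSO replicate 2 moved VEGFA, NDRG1 and STC2 to lower values, moved EDN1 from -1.76 to -1.64, and left ADM and ANGPTL4 nearly in place.

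DMSO replicate 2 was below both other DMSO samples in 6 of the 9 tested members, VEGFA, NDRG1, STC2, ANKRD37, KDM3A and BHLHE40, compared with 35.7% of all tested genes. It lay at least 0.5 below the mean of the other DMSO samples on the log2 scale in 3 of them, VEGFA (-0.66), NDRG1 (-0.68) and STC2 (-0.67), compared with 4.97% of all tested genes. In VEGFA, NDRG1 and STC2 this sample held 62.6% to 63.1% of the level of the other DMSO samples. With DMSO replicate 2 left out, 9 of the 10 members had groups that did not overlap (33.5% of all tested genes did so in this direction), all but ANGPTL4, and the median log2 fold change of the tested members was -1.10. The reason for the lower values in DMSO replicate 2 was not tested.

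Levels can be compared between genes only per length. In RPKM, that is reads on a gene divided by the length of its canonical transcript and by the library's reads on genes, NDRG1 was highest in DMSO at 228 ± 59.7, followed by ANGPTL4 (94.5 ± 4.14), BHLHE40 (93.7 ± 7.33) and STC2 (84.5 ± 21.8), which did not differ from each other beyond their spread. KDM3A (37.7 ± 3.49) and ADM (28.2 ± 1.44) came next. ANKRD37 (15.1 ± 1.39), VEGFA (14.3 ± 3.65) and EDN1 (13.1 ± 1.82) again lay within their spread, and CA9 was last at 0.251 ± 0.083 (SD, n = 3 each). In plaB, NDRG1 at 101 ± 6.91 and ANGPTL4 at 95.7 ± 6.97 lay within their spread of each other, and STC2 at 77.1 ± 6.98 stood above BHLHE40 at 48.1 ± 4.39. The secreted factors with overlapping groups were therefore among the most abundant members, and the lowest levels in plaB were those of ANKRD37 (6.34 ± 0.634) and VEGFA (5.90 ± 0.479), which lay within their spread of each other, EDN1 (3.97 ± 0.527) and CA9 (0.0552 ± 0.0266).

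The canonical transcripts of the members differ in how much splicing they need. ADM and STC2 have 3 introns, ANKRD37, BHLHE40 and EDN1 have 4, ANGPTL4 has 6, VEGFA 7, CA9 10, NDRG1 15 and KDM3A 25, with a median of 5 against 7 for the 15055 tested genes with a canonical transcript. The members with overlapping groups, STC2 and ANGPTL4, have 3 and 6 introns. Whether the number of introns bears on the change of a member was not tested. Transcript length had a median of 2530 bases in the members and 3177 in the tested genes.

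For the 3 tested members with the lowest fold changes, the genes with the most similar course over the 6 samples were sought. Only tested genes outside the members were searched, so another member may be closer than the genes named here. The measure was the root mean square difference of the centred log2 profiles. For EDN1 these were H2BC9 (0.124), ZNF552 (0.165) and CDC40 (0.167). For ANKRD37 they were IFIH1 (0.0506), FUT11 (0.0519) and FBXL7 (0.0541). For VEGFA, with its low DMSO replicate 2, they were ALDH1L2 (0.102), KCNS1 (0.115) and ZNF114 (0.118). ALDH1L2, for example, had 535, 372 and 518 adjusted reads in DMSO replicates 1, 2 and 3, and 156, 174 and 202 in plaB.

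The ligands have close relatives that are not members. Their list was written with earlier results of these samples known, so its direction is not independent evidence. The same holds for the lists of receptors, of intracellular relatives and of HIF genes below. Of 17 relatives, 6 passed the filter. By limma (adjusted p below 0.05 over all tested genes), 2 rose (33.3%, compared with 22.4% of all tested genes) and 2 fell (33.3%, compared with 25.2%). The median log2 fold change was -0.09. STC1, the other stanniocalcin, rose from 92.3 ± 34.5 to 218 ± 17.2 adjusted reads (SD, n = 3 each; log2 fold change 1.31, SE 0.22, limma adjusted p = 9e-05), higher in 3 of 3 plaB samples than in any DMSO sample. Its reads were 119, 52 and 118 in DMSO, so that DMSO replicate 2 was the lowest here as for STC2, and without it the log2 fold change was 0.95. ANGPTL2, a secreted relative of ANGPTL4 with a role in inflammation, rose by 0.92 on the log2 scale (SE 0.15, limma adjusted p = 7.3e-05). ADM2, the intermedin relative of ADM, fell by 0.88 (SE 0.25, limma adjusted p = 0.0081), but its reads of 244, 105 and 301 in DMSO and 106, 109 and 87 in plaB overlapped at DMSO replicate 2. Without DMSO replicate 2, ADM2 had a log2 fold change of -1.30; it was no longer called without DMSO replicate 3 (-0.59, limma adjusted p = 0.059), without plaB replicate 3 (-0.75, limma adjusted p = 0.05) or with DESeq2 (-0.97, adjusted p = 0.054). ANGPTL6 fell by 0.66 (SE 0.25, limma adjusted p = 0.042) at 19 to 47 reads, and this call was lost under 9 of 11 alternatives. Other VEGF family ligands were not called: VEGFB had a log2 fold change of -0.05 and VEGFC of -0.14.

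Receptors and enzymes that act on the ligands numbered 18, and 15 of them passed the filter. By limma, 5 rose (33.3%, compared with 22.4% of all tested genes) and 4 fell (26.7%, compared with 25.2%). The median log2 fold change was 0.09. EDNRA, the endothelin receptor of smooth muscle, rose from 27.3 ± 4.63 to 58.3 ± 9.0 adjusted reads (SD, n = 3 each; log2 fold change 1.07, SE 0.23, limma adjusted p = 0.001), and EDNRB was at 0.09 (limma adjusted p = 0.57). FLT1, a VEGFA receptor, had 12 to 24 reads in DMSO and 31 to 38 in plaB and rose by 1.0 (SE 0.30, limma adjusted p = 0.012), a call that was lost without DMSO replicate 3 (0.73, adjusted p = 0.06) or without plaB replicate 2 (0.89, adjusted p = 0.061). RAMP2, which turns the calcitonin receptor-like receptor into an adrenomedullin receptor, rose by 0.96 (SE 0.15, limma adjusted p = 4.4e-05), and CALCRL itself had only 2 to 9 reads and was not tested. NRP1, a VEGFA co-receptor, rose by 0.88 (SE 0.07, limma adjusted p = 7e-08) from 342 ± 18.2 to 628 ± 10.8 adjusted reads. The lipoprotein lipase gene LPL, the target of ANGPTL4, which was named after its value had been seen, rose by 0.36 (limma adjusted p = 0.00028).

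The 4 genes of this list that fell were PAM, ECE1, MME and FLT4. PAM, the enzyme that amidates peptides such as adrenomedullin, fell by 0.67 (SE 0.05, limma adjusted p = 7.1e-09), from 3548 ± 185 to 2231 ± 30.5 adjusted reads. ECE1, which cuts the endothelin precursor, and MME, which degrades vasoactive peptides, each fell by 0.21 (limma adjusted p = 0.002 and 0.0024). FLT4, the receptor for VEGFC, fell by 0.31 (SE 0.07, limma adjusted p = 0.0016). Without correction for length, ECE1 had the most adjusted reads of the list (4404 ± 229 in DMSO), and RAMP3 the fewest, with 0 or 1 read. PAM, ECE1, MME and FLT4 were each below their DMSO range in every plaB sample. ECE2, the other endothelin-converting enzyme, had 0 to 2 reads and was not tested.

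Relatives of the membrane and intracellular members numbered 17, and 13 of them passed the filter. By limma, 4 rose (30.8%, compared with 22.4% of all tested genes) and 2 fell (15.4%, compared with 25.2%), with a median log2 fold change of 0.03. BHLHE41, which encodes DEC2, the paralogue of the BHLHE40 product, rose by 0.76 (SE 0.17, limma adjusted p = 0.0015) from 59.7 ± 8.12 to 102 ± 11.8 adjusted reads. Of the carbonic anhydrases, CA13 rose by 0.76 (limma adjusted p = 7e-05), and CA12, which like CA9 faces the outside of the cell, rose by 0.62 (limma adjusted p = 0.0011). Of the KDM3 family, JMJD1C rose by 0.26 (limma adjusted p = 0.00015) and KDM3B fell by 0.30 (limma adjusted p = 4.3e-05). NDRG3 fell by 0.18 (limma adjusted p = 0.0075), while NDRG2 and NDRG4 were at 0.11 and -0.14 and not called. Differences between a member and its relative were not tested.

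A further list of 47 genes known to be induced by hypoxia was mostly lower in plaB. It does not hold every hypoxia-induced gene. Genes placed in the lists of relatives, receptors and HIF genes, whether they rose or fell, are not counted in it. The list was written with earlier results of these samples known, so its direction is not independent evidence. Of the 44 that passed the filter, 30 fell (68.2%, compared with 25.2% of all tested genes) and 6 rose (13.6%, compared with 22.4%) by limma. A fall of at least 2-fold was called in 10, compared with 1.98% of all tested genes. The median log2 fold change was -0.62, or -0.70 without DMSO replicate 2. CCNG2, an unconventional cyclin induced in quiescent cells, fell by 1.52 (SE 0.09, limma adjusted p = 1.1e-09), and IGFBP3, which binds insulin-like growth factors, fell by 1.43 (SE 0.05, limma adjusted p = 1.7e-12). PPFIA4, a liprin, fell by 1.27 (limma adjusted p = 3.5e-07), and P4HA1, the collagen prolyl hydroxylase, fell by 1.26 (limma adjusted p = 5e-11).

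Of the 6 genes of that list that rose, TMEM158 rose most, by 2.11 (SE 0.20, limma adjusted p = 2.4e-07), from 28.6 ± 5.90 to 125 ± 13.8 adjusted reads; it is best known as a gene induced by RAS in senescence. NT5E, the ectoenzyme that makes adenosine, rose by 0.68 (limma adjusted p = 2.9e-09), and the transcription factor gene MAFF by 0.43 (limma adjusted p = 1.1e-06). HMOX1, haem oxygenase 1, rose by 0.35 (limma adjusted p = 0.0067), and was no longer called without plaB replicate 2 (limma adjusted p = 0.058). CITED2, a transcriptional regulator that competes with HIF1A for its coactivators and was named after its value had been seen, rose by 0.25 (limma adjusted p = 0.00076). DMSO replicate 2 was below both other DMSO samples in 35 of the 44 tested genes, compared with 35.7% of all tested genes. Its median against the mean of the other DMSO samples was -0.23, where the median of all tested genes was 0.01.

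**Figure D3:**
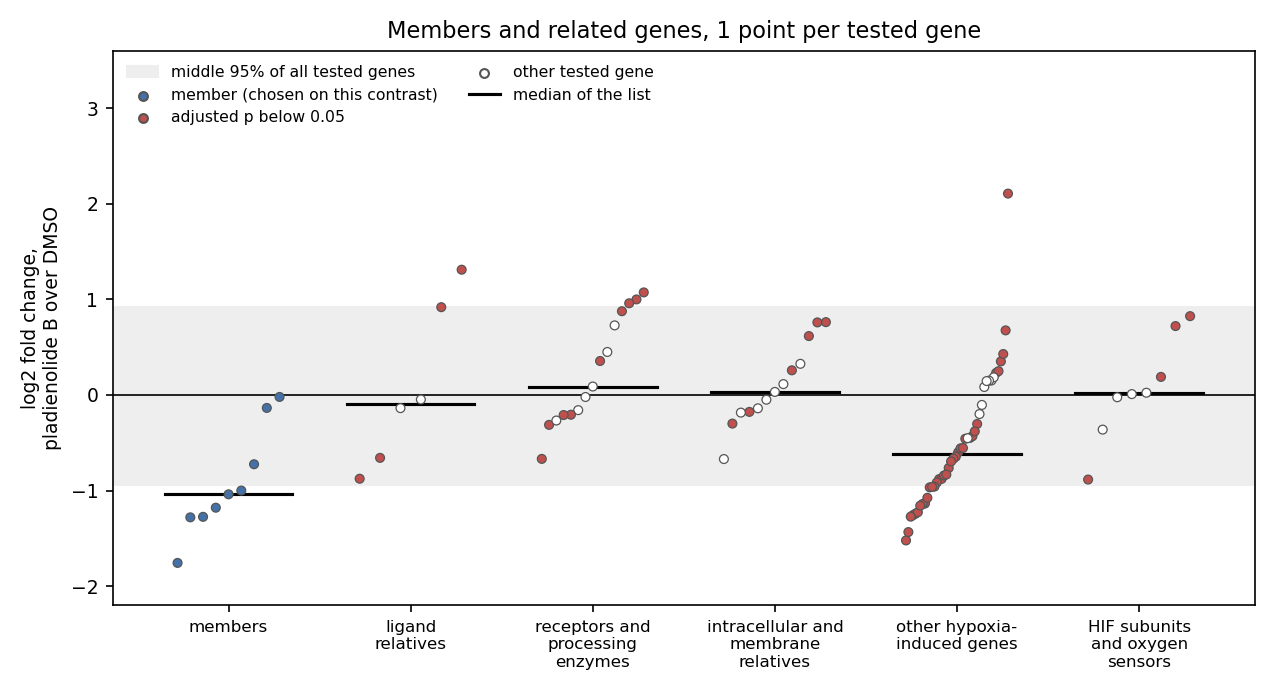
Log2 fold change of plaB over DMSO for each tested gene of the members and of 5 related lists; red points have a limma adjusted p below 0.05, the members are blue because they were chosen on this contrast, the black line is the median of a list and the grey band holds the middle 95% of all tested genes. Most members and most genes of the list of other hypoxia-induced genes lie below 0, while the relatives, receptors and sensors lie on both sides.

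Of the HIF subunits and oxygen sensors, 8 of 10 genes passed the filter. By limma, 3 rose (37.5%, compared with 22.4% of all tested genes) and 1 fell (12.5%, compared with 25.2%). HIF1A transcripts had 3770, 5462 and 3499 adjusted reads in DMSO replicates 1, 2 and 3, and 7553, 7469 and 7099 in plaB. HIF1A thus rose, by 0.82 (SE 0.10, limma adjusted p = 6.3e-06), or by 1.02 without DMSO replicate 2, which lay 48.9% of the way from the other DMSO samples to plaB. DMSO replicate 2 was the highest DMSO sample for HIF1A, whereas it was the lowest for 6 members. EPAS1, which encodes HIF2A, rose by 0.72 (SE 0.14, limma adjusted p = 0.00048), with 172, 142 and 214 adjusted reads in DMSO and 331, 292 and 245 in plaB. ARNT was at -0.02 (limma adjusted p = 0.80).

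EGLN1, the main oxygen sensor and itself a HIF target, fell by 0.88 (SE 0.04, limma adjusted p = 8.3e-11), from 6916, 6378 and 6718 adjusted reads in DMSO to 3581, 3560 and 3695 in plaB. EGLN3, also a HIF target, was at -0.36 (limma adjusted p = 0.11), with 46 to 88 reads, and EGLN2 and HIF1AN were at 0.02 and 0.01 (limma adjusted p = 0.73 and 0.89). VHL rose by 0.19 (SE 0.06, limma adjusted p = 0.024), a call that was lost without DMSO replicate 2 (0.12, adjusted p = 0.076), without plaB replicate 1 (0.19, adjusted p = 0.065) or without plaB replicate 2 (0.13, adjusted p = 0.16). These are transcript levels: the amount of HIF protein, which oxygen controls, was not measured in these libraries. Whether any of these transcripts bears on the members was not tested.

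**Figure D4:**
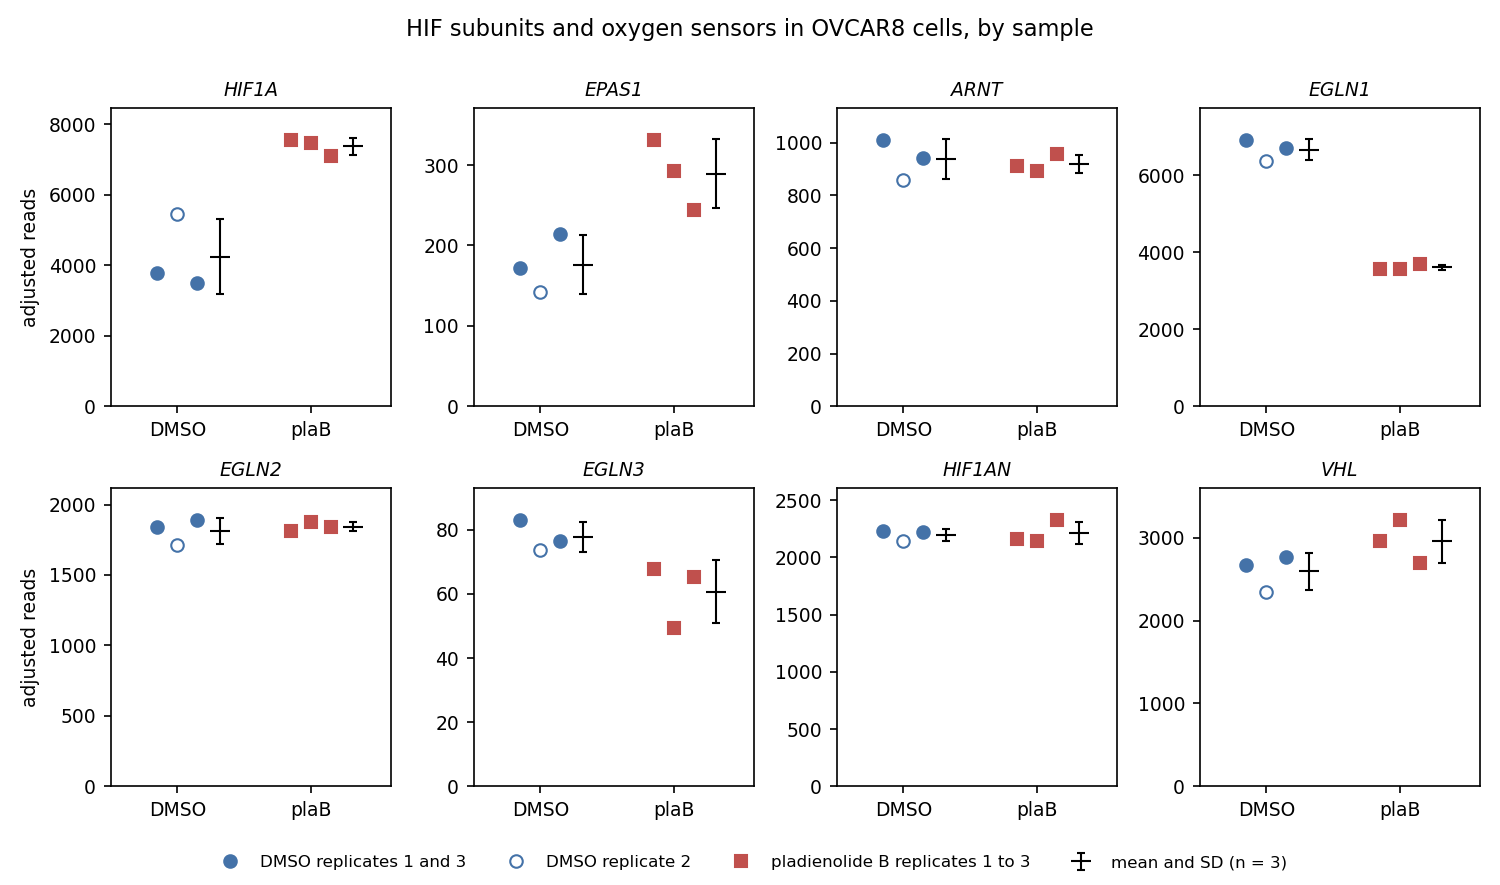
Adjusted reads (vertical axes, starting at 0) of the 8 tested HIF subunits and oxygen sensors in each DMSO and plaB sample, with the mean and SD of 3 samples; the open circle is DMSO replicate 2. HIF1A and EPAS1 are higher and EGLN1 and EGLN3 are lower in every plaB sample than in every DMSO sample, and ARNT, EGLN2, HIF1AN and VHL overlap.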

How the data were processed

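Poly(A) RNA of 3 DMSO and 3 plaB samples was analysed from one gene table. Per the submitters' processing notes, reads were aligned with HISAT2 and counted with HTSeq 0.12.4. The deposited signal values are gene counts that the authors adjusted to equal library sizes; inverting that adjustment (edgeR) returned whole reads for 100% of values within 1e-04. The build is hg19 in the processing notes and hg38 in the study's methods; 99.85% of 35926 shared symbols overlapped their RefSeq GRCh38.p14 positions, so GRCh38 was used. The authors' fold changes and p-values in the table were not used.

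Genes passing edgeR's filterByExpr (minimum count 10, total 15) were tested on log2(value + 1), a scale that understates the change of low genes, with limma's trend and Benjamini-Hochberg adjustment over 16178 genes (threshold 0.05). Samples were grouped by their labels. The steps were tested on simulated data. The 11 alternatives were a pseudocount of 0.1, no filter, a replicate block, each sample left out, and edgeR and DESeq2 on the recovered reads. The members and lists were chosen with earlier results of these data known. Named were all members, tested HIF and sensor genes, up to 4 called genes per direction and list, and the receptors of lowest and highest value. For each of 3 members, the 3 most similar profiles among tested non-members were also named. Transcripts, introns and RPKM come from canonical transcripts. The precision is limited by 3 samples per group and, for low genes, by read counts. Versions were R 4.3.3, edgeR 4.0.16, limma 3.58.1 and DESeq2 1.42.0.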

Additional observations from a re-analysis of the deposited data

How the results depend on the processing

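Under the 11 alternatives the median log2 fold change of the tested members ranged from -1.10 to -0.99. Without a filter, CA9 had a log2 fold change of -1.80. Over all genes the count called was 7695, and 6568 to 7836 with 1 sample left out. Whether equal replicate numbers mark paired samples is not given in the labels. Over all tested genes, the deviations of samples with the same number had correlations of -0.0183, -0.0175 and 0.00261. These values cannot exclude a pairing that affects some genes only. With the replicate block 7349 genes were called. On the recovered reads edgeR called 7738 and DESeq2 6985. The count of called ligand relatives, 4, ranged from 2 to 5 with 1 sample left out and was 2 with DESeq2, the calls lost there being those of ADM2 and ANGPTL6. For the 34 other named genes, 352 values stayed, 18 lost the call and 4 reversed, none of them called. With 1 sample left out, ARNT ranged from -0.085 to 0.032, EGLN2 from -0.017 to 0.053 and HIF1AN from -0.027 to 0.030; the reversals were ARNT without DMSO replicate 1, EGLN2 and HIF1AN without DMSO replicate 2 (HIF1AN -0.0097) and HIF1AN without plaB replicate 3. Low reads limit CA9, CALCRL and FLT1.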
